A study of Mus musculus with 4 samples.

Results

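The genes described here form the MYC/MAX/MXD network, which was taken by gene symbol as *Myc* and *Mycn*, their partner *Max*, the related partner *Mlx*, the repressors *Mxd1*, *Mxi1*, *Mxd3*, *Mxd4* and *Mnt*, and *Mga*. All 10 were present among the 39179 Ensembl genes counted. RNA-seq was performed on 4 libraries of B16F1, a mouse melanoma line that grows on rigid plastic dishes. The 2 parental libraries (replicates 1 and 3) are of B16F1 cells not selected in gels, and the 2 TRC libraries (replicates 1 and 3) are of tumor repopulating cells, which are the spheroid-forming cells that were collected from 90 Pa fibrin gels on day 5. Neither group carried a genetic change or a drug according to the labels. All cells come from a single cell line, and selection of cells by the gel, growth in 3 dimensions and the soft matrix cannot be told apart in this design. Nothing in the labels says that replicates came from separate cultures, so p-values measure the spread between these libraries, which may be technical.

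MYC and MYCN are transcription factors of the basic helix-loop-helix leucine zipper family that bind DNA only as dimers with MAX. The dimers recognise the E-box, whose preferred form is CACGTG, and activate genes of ribosome assembly, nucleotide synthesis and growth. MXD1, MXI1, MXD3, MXD4 and MNT compete for MAX and for the same E-boxes, and recruit the SIN3 corepressor with its histone deacetylases. MLX is a second hub that pairs with MLXIP (MondoA) and MLXIPL (ChREBP), which sense glucose metabolites, and also with some of the MXD proteins and MNT. MGA is a very large MAX partner that belongs to a repressive Polycomb complex, PRC1.6. The mRNA measured here gives the supply of each transcript and not the amount or the dimers of the proteins.

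Between 35948295 and 43511554 counts fell on genes per library, and 11483 genes passed the filter on low counts. Values are CPM, which are counts relative to library size, scaled by TMM, edgeR's correction for library composition. For each group the value of replicate 1 is given before that of replicate 3. The exact test of edgeR was run over all tested genes with Benjamini-Hochberg adjustment (FDR), and FDR under 0.05 was called. Standard errors (SE) and 95% intervals of log2 fold changes (TRC over parental) come from DESeq2. All 7 melanocyte lineage markers tested were detected in every library, from 46.2 CPM upward. All 7 log2 fold changes were positive, and 1 marker (14.3%, against 8.81% of all tested genes) was called higher. This was *Dct*, with a log2 fold change of 1.08 (FDR = 0.000307, edgeR exact test). Its FDR was 0.0704 in edgeR's quasi-likelihood test. Of 11 markers of leukocytes, endothelium, epithelium and fibroblasts, 5 had no count in any library, 9 stayed under 1 CPM everywhere, and the summed level of all 11 ranged from 3.51 to 6.52 CPM in parental cells and from 3.24 to 3.73 CPM in TRCs.

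In TRCs, the repressor genes *Mxi1* and *Mxd4* were upregulated 3.57-fold and 3.56-fold, and no other member passed the test in either direction. *Myc* itself did not pass. Of the 9 members tested, 2 (22.2%) were thus called higher, where 8.81% of all tested genes were called higher, and 0 were called lower, where 7.05% of all tested genes were. At an unadjusted p under 0.05 the exact test had 2 members lower, *Max* and *Mxd3*, and both DESeq2's Wald test and edgeR's quasi-likelihood test called 2 members higher and 0 lower. The median log2 fold change of the 9 members was −0.28, against 0.003 over all genes tested.

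*Mxi1* (ENSMUSG00000025025), which encodes a MAX partner that brings SIN3 to E-boxes, is annotated on chromosome 19, plus strand, 53310518 to 53375810 (GRCm38). It was measured at 48.7 and 43.4 CPM in parental cells, and at 129 and 200 CPM in TRCs. Both TRC libraries lay far above both parental libraries, and they differed from each other by a ratio of 1.55. The log2 fold change was 1.83 (SE 0.26, FDR = 6.81e-10, edgeR exact test), with a 95% interval from 1.32 to 2.35, and it ranked 222 of 11483 genes. With single libraries left out it ranged from 1.47, without TRC replicate 3, to 2.10, without TRC replicate 1.

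*Mxd4* (ENSMUSG00000037235), formerly known as Mad4 and associated with cells that leave the cycle and differentiate, is annotated on chromosome 5, minus strand, 34173883 to 34187720. Its level was 56.4 and 43.4 CPM in parental cells, and 180 and 175 CPM in TRCs. The TRC libraries were nearly equal, so the difference was many times the spread within either group. The log2 fold change was 1.83 (SE 0.22, FDR = 7.49e-12, edgeR exact test), with a 95% interval from 1.41 to 2.26, at rank 225. Left-out libraries moved it between 1.66 and 2.03. An annotated antisense gene shares 6.1% of its exon bases. The highest FDR under any alternative was 0.0157 for *Mxd4* and 0.0221 for *Mxi1*.

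**Figure D1:**
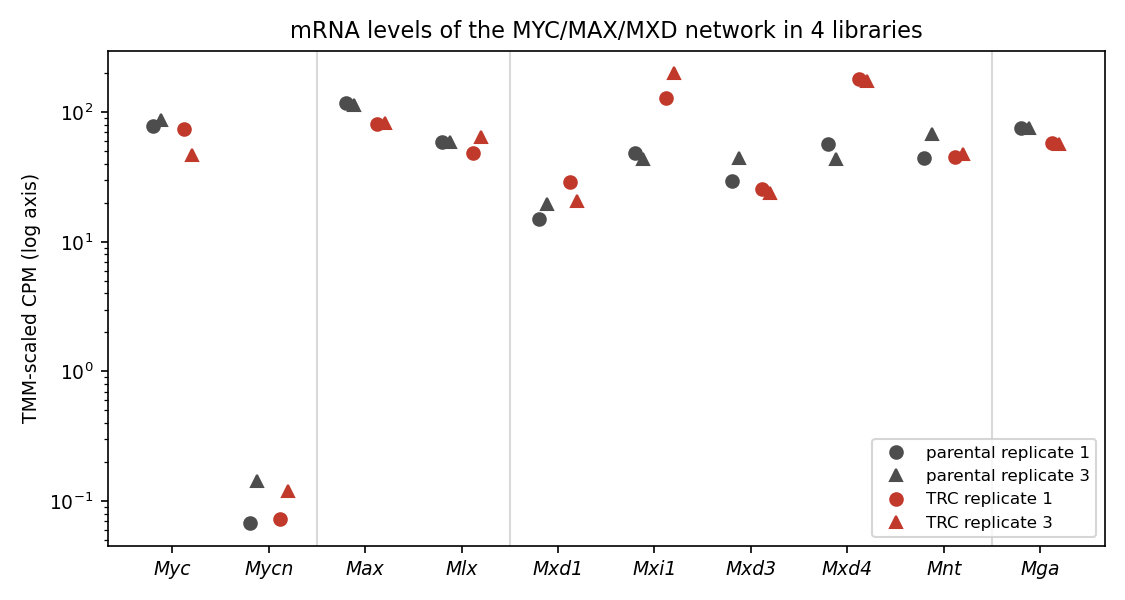
TMM-scaled CPM on a log axis for each of the 10 members in each library (grey, parental; red, TRC; circles, replicate 1; triangles, replicate 3), ordered as activators, partners, repressors and *Mga*. *Mxi1* and *Mxd4* are the members whose TRC libraries sit at 129 to 200 CPM, while *Mycn* stays between 0.0675 and 0.142 CPM.

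Because these 2 repressors rose together, the sequences just before their starts are shown. They come from RefSeq (GRCm38.p6) and are written in the direction of the gene, with capitals for ACGTG on either strand, which is the core shared by one form of the hypoxia response element and the E-box CACGTG. *Mxi1* has several annotated starts that the gene counts add together, and the first and the second are given. The piece of *Mxd4* stops where the annotated exon begins.
Mxi1 first start, chr19:53310256-53310505, plus strand: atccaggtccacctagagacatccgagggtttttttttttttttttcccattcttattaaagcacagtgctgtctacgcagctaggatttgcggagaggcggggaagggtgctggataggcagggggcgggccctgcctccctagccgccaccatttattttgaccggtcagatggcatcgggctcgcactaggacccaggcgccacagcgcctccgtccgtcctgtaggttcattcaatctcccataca
Mxi1 second start, chr19:53329163-53329412, plus strand: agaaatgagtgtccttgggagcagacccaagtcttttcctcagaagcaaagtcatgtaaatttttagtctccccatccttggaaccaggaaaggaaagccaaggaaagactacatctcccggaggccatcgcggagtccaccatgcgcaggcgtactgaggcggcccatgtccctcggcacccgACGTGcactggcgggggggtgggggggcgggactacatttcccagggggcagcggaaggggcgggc
Mxd4, chr5:34187721-34187960, minus strand: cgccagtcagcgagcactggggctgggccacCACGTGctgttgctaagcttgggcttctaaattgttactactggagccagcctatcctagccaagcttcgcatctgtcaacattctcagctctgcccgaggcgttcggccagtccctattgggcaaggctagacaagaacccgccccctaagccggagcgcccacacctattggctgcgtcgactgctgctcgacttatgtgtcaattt

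In the 250 bases before its second start *Mxi1* held 1 ACGTG, 66 bases upstream, and before its first start it held none. The remaining annotated start, which is not shown, had 1 ACGTG 25 bases upstream, inside an annotated exon of *Mxi1*. *Mxd4* held CACGTG 219 bases upstream. ACGTG occurs in 16.6% and CACGTG in 6.02% of all 32841 promoter windows of this length. Promoter sequences were found for 9 members. The window of *Mga*, which was not called, also held 1 ACGTG outside an E-box, 8 bases upstream. Besides *Mxd4*, the windows of *Mnt* and *Mlx* held CACGTG, 123 and 40 bases upstream, and neither of these genes was called. The 3 sites are set side by side below with 12 bases on each side and the E-box in capitals, since they differ in the bases that flank it.
Mxd4, chr5:34187912-34187941, minus strand: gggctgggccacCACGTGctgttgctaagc
Mnt, chr11:74830789-74830818, plus strand: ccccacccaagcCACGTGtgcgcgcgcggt
Mlx, chr11:101087238-101087267, plus strand: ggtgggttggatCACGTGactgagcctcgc

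The other repressors of the family did not pass the test. *Mxd1*, the founding MXD gene, was the lowest expressed of them in parental cells, at 14.9 and 19.7 CPM. In TRCs it was measured at 28.9 and 20.7 CPM. The groups did not overlap but nearly met, and the log2 fold change was 0.52 (95% interval −0.06 to 1.10, FDR = 0.277, edgeR exact test). *Mxd3*, an MXD gene usually seen in dividing cells, stood at 29.3 and 44.2 CPM in parental cells and 25.5 and 23.9 CPM in TRCs. Its log2 fold change was −0.57 (95% interval −1.12 to −0.02, FDR = 0.152, edgeR exact test). Without parental replicate 1 it was −0.84 with an FDR of 0.0336, and this was the only left-out library that brought a further member past the threshold. An opposite-strand gene, *Prelid1*, shares 4.4% of the exon bases of *Mxd3*, and since the strand setting of the counting is not given, reads there may not be assigned to either gene.

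*Mnt*, the most widely expressed MAX-binding repressor, had 44.3 and 68.4 CPM in parental cells and 45.1 and 47.8 CPM in TRCs. The groups overlapped, as both TRC libraries lay between the parental values. The log2 fold change was −0.28 (95% interval −0.81 to 0.25, FDR = 0.518, edgeR exact test), and without parental replicate 3 it was 0.07. *Mga* was almost the same within each group, at 75.2 and 75.2 CPM in parental cells and 57.5 and 56.5 CPM in TRCs. Its log2 fold change of −0.40 (95% interval −0.79 to −0.01) had an FDR of 0.214 in edgeR's exact test and was not called, although the groups did not overlap. In all, 3 members were above (*Mxi1*, *Mxd4* and *Mxd1*) and 4 below (*Myc*, *Max*, *Mxd3* and *Mga*) both parental libraries in both TRC libraries, where such a separation was found for 30.2% and 30.4% of all tested genes, or 60.6% in either direction.

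*Myc* (ENSMUSG00000022346), annotated on chromosome 15, plus strand, 61985391 to 61990374, was measured at 78.9 and 87.0 CPM in parental cells and at 73.7 and 46.7 CPM in TRCs. Both TRC values were below both parental values, but TRC replicate 1 was close to the parental range and TRC replicate 3 was not, with a ratio of 1.58 between them. The log2 fold change was −0.46 (SE 0.27, FDR = 0.227, edgeR exact test). The 95% interval of the fold change ran from 0.504 to 1.05, so these libraries do not separate an unchanged *Myc* mRNA from a large fall. It was −0.18 without TRC replicate 3 and −0.85 without TRC replicate 1. *Mycn*, the paralog known from neural and embryonic tissue, had 3 and 5 counts in parental cells and 3 and 5 counts in TRCs. These correspond to 0.101 CPM (95% Poisson interval 0.0438 to 0.200, counting error only) in parental cells and 0.0951 CPM (0.0411 to 0.187) in TRCs. *Mycn* was removed by the filter and was not tested. The third paralog, *Mycl*, had 1 count in all in parental cells and 7 in TRCs.

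*Max*, the obligate partner, was measured at 118 and 114 CPM in parental cells and at 81.6 and 82.0 CPM in TRCs. The libraries of each group were close together and the groups were apart. The log2 fold change was −0.50 (SE 0.19, 95% interval −0.87 to −0.12), with an unadjusted p of 0.0227 and an FDR of 0.105 in edgeR's exact test, so that the fall did not pass over all genes. It stayed between −0.52 and −0.47 with single libraries left out. *Mlx* had 58.6 and 58.8 CPM in parental cells, between the 48.6 and 64.9 CPM of the TRC libraries. Its log2 fold change of −0.05 (95% interval −0.51 to 0.41, FDR = 0.924, edgeR exact test) turned to 0.13 without TRC replicate 1. *Psmc3ip*, on the opposite strand, shares 19.3% of the exon bases of *Mlx*. Of the partners of MLX, *Mlxip* was expressed at 63.3 to 71.4 CPM in the 4 libraries (log2 fold change −0.08, FDR = 0.862, edgeR exact test), and *Mlxipl* had 1 count in all in parental cells and 2 in TRCs.

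**Figure D2:**
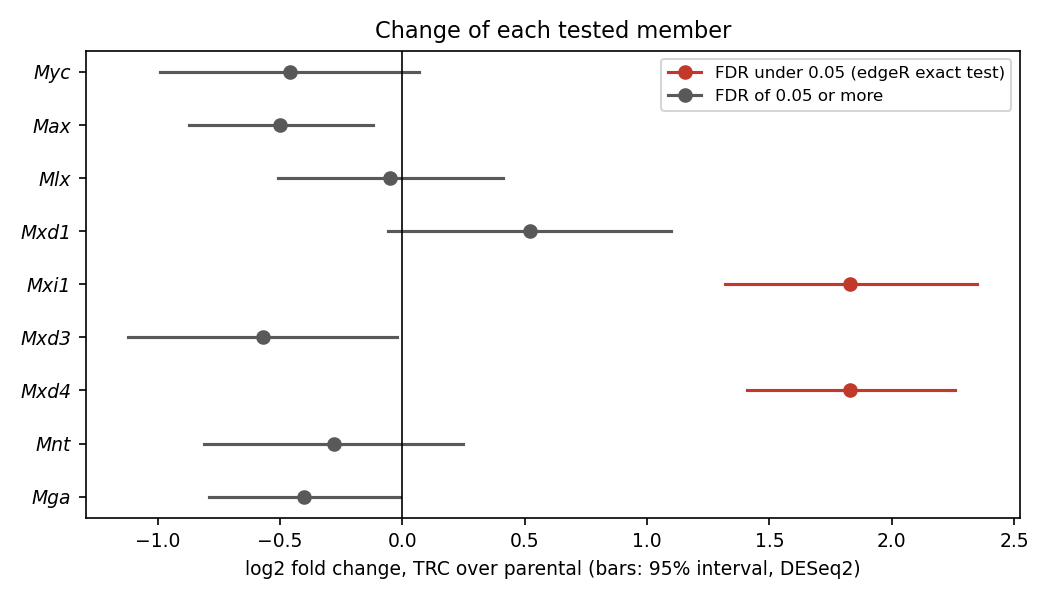
Log2 fold change of TRC over parental for the 9 members tested, with 95% intervals from DESeq2 (red, FDR under 0.05 in edgeR's exact test; grey, not called). *Mxi1* and *Mxd4* lie at 1.83 with intervals clear of the rest, and the intervals of *Max*, *Mxd3* and *Mga* end just below 0 although these genes were not called.

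Levels of different members were compared as TMM-scaled CPM per kb of exon length. In parental cells the order was *Max* (32.1 ± 0.804, SD, n = 2), *Myc* (30.5 ± 2.11) and *Mlx* (29.4 ± 0.0648), whose neighbouring ranges overlapped, then *Mxd3* (15.5 ± 4.46) and *Mnt* (12.2 ± 3.67), which also overlapped. *Mxi1* (6.75 ± 0.555) and *Mxd4* (5.88 ± 1.08) overlapped each other and lay below all of these, above *Mga* (4.90) and *Mxd1* (2.45). In TRCs the order was *Mlx* (28.4 ± 5.76), *Mxi1* (24.1 ± 7.39), *Max* (22.7 ± 0.0709), *Myc* (22.2 ± 7.05) and *Mxd4* (21 ± 0.39), and each overlapped the next. Thus *Mxi1* and *Mxd4* moved from the lower part of the order into the range of *Max* and *Myc*. Below them came *Mxd3* (10.4), *Mnt* (10), *Mga* (3.72) and *Mxd1* (3.51). *Mycn* was the lowest member in both groups, under 0.05 CPM per kb. Order between genes and ratios between them depend on the exon models. Per kb of the longest transcript, mean levels in parental cells were 59.6 for *Max*, 35.5 for *Myc* and 29.9 for *Mlx*. In TRCs they were 42.1 for *Max*, 38.4 for *Mxd4*, 32.6 for *Mxi1*, 28.9 for *Mlx* and 25.7 for *Myc*.

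On the same scale, *Mxi1* reached 0.218 and 0.201 of the level of *Max* in parental cells, and 0.831 and 1.29 in TRCs. *Mxd4* reached 0.203 and 0.162 of *Max* in parental cells and 0.936 and 0.907 in TRCs. For *Myc* the ratio to *Max* was 0.887 and 1.01 in parental cells and 1.20 and 0.753 in TRCs, with the parental values inside the TRC range. The summed level of the 5 SIN3-binding repressors *Mxd1*, *Mxi1*, *Mxd3*, *Mxd4* and *Mnt* was 37.8 and 47.7 CPM per kb in parental cells and 64.7 and 73.3 in TRCs. Without *Mxi1* and *Mxd4* it was 24.0 and 36.2 in parental cells and 24.6 and 23.3 in TRCs, so the higher sum rested on these 2 genes.

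These repressors made up 56.6% and 59.8% of the pool of *Myc*, *Mycn* and repressor mRNA per kb in parental cells, and 70.4% and 81.0% in TRCs. The share rose in mean from 58.2% to 75.7%, by 17.5 percentage points, and the groups did not overlap. The two-sided exact permutation p was 0.333, which is the smallest that 2 against 2 libraries can give, so the test cannot pass 0.05. Within the pool, *Myc* accounted for 43.4% and 40.1% in parental cells and 29.5% and 19.0% in TRCs. *Mxi1* went from 10.7% and 7.97% to 20.5% and 32.4%, and *Mxd4* from 9.94% and 6.42% to 23.1% and 22.8%. *Mxd3* made up 18.5% and 23.4% in parental cells and 11.7% and 11.1% in TRCs.

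**Figure D3:**
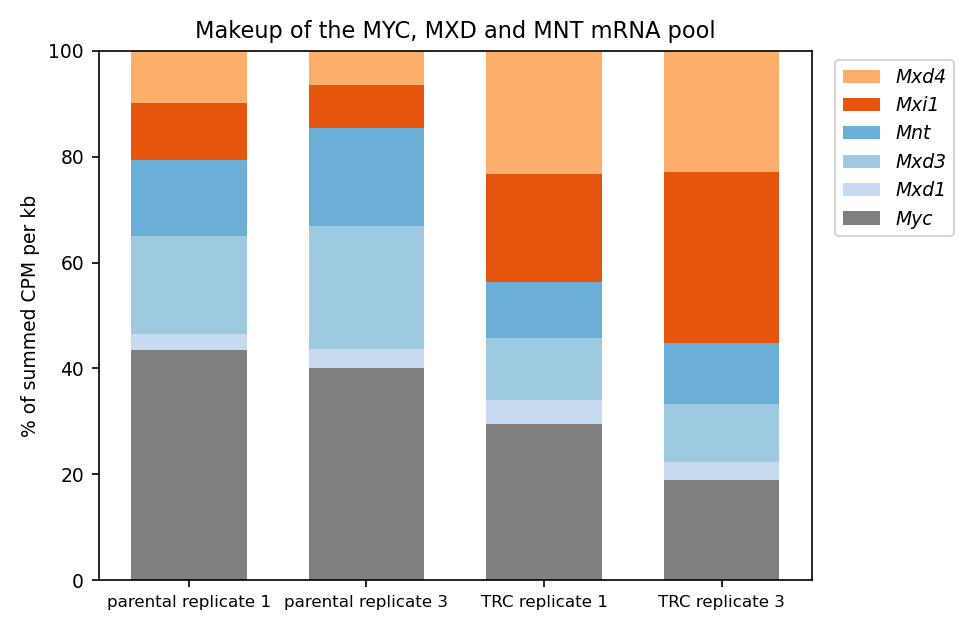
Stacked share of each gene in the summed CPM per kb of *Myc* and the 5 SIN3-binding repressors in each library (*Mycn*, under 0.1%, is too small to draw). The segments of *Mxi1* and *Mxd4* together widen from 20.6% and 14.4% in the parental libraries to 43.6% and 55.2% in TRCs, and the grey *Myc* segment narrows from 43.4% and 40.1% to 29.5% and 19.0%.

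The genes that MYC is known to activate were mostly lower in TRCs. A list of 60 such genes, written with a fall of ribosome assembly genes in these libraries already known, was tested in full, and 39 (65%) were downregulated, 1 was upregulated and 20 did not pass, against 7.05% of all tested genes called lower. The median log2 fold change was −0.85, against 0.003 over all genes, and 56 of 60 values were negative. The strongest calls were *Nop2*, an rRNA methyltransferase, at −1.65 (FDR = 3.88e-10), *Nop56*, a core protein of box C/D snoRNPs, at −1.57 (FDR = 3.27e-09), and *Rrp12*, a factor of ribosomal subunit export, at −1.88 (FDR = 5.97e-09). *Nop2* fell from 208 and 243 CPM in parental cells to 70.3 and 73.7 CPM in TRCs, with no overlap. The exception was *Hk2*, a hexokinase gene that is also a target of HIF, with 78.7 and 86.9 CPM in parental cells and 172 and 405 CPM in TRCs (log2 fold change 1.80, FDR = 9.55e-06, all from edgeR's exact test). By role, 23 of 29 genes of the nucleolus and ribosome assembly, 4 of 4 genes of nucleotide and polyamine synthesis, 2 of 2 mitochondrial chaperone genes and 2 of 2 replication genes were called lower, along with 8 of the remaining 23. These groupings were made after the values were seen. The number called lower was 21 without parental replicate 3, 22 without TRC replicate 1 and 25 without TRC replicate 3.

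Genes that MYC is known to repress were 6 of 8 tested, of which 3 were upregulated, against 8.81% of all tested genes, and 0 downregulated, against 7.05%, with 0 lower at an unadjusted p under 0.05 and 0 lower by DESeq2. Without parental replicate 3, 1 gene of the list was called lower, *Ddit3*, a stress gene, at −1.69 (FDR = 1.07e-05, edgeR exact test). The median log2 fold change of the list was 0.85. *Cdkn1b*, which encodes the cyclin-dependent kinase inhibitor p27, rose from 142 and 133 CPM to 306 and 350 CPM, a log2 fold change of 1.25 (SE 0.19, FDR = 3.46e-06, edgeR exact test). *Ndrg1*, which is also induced by hypoxia, and its relative *Ndrg2* had log2 fold changes of 1.14 (SE 0.20) and 4.90 (SE 0.47). The parental level of *Ndrg2* was low, at 1.06 and 0.283 CPM against 19.4 and 21.5 CPM in TRCs, so the size of its change is uncertain. *Cdkn1a*, the gene of p21, had 99.9 and 128 CPM in parental cells and 99.1 and 239 CPM in TRCs, with overlap and an FDR of 0.285 in the same test.

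Among 8 targets of MLX complexes with MLXIP or MLXIPL, 6 were tested and 2 were upregulated, against 8.81% of all tested genes. In this list 0 were downregulated (0 also at an unadjusted p under 0.05 and by DESeq2), and the median log2 fold change was 0.46. *Arrdc4*, which the filter removed, had 0 and 1 counts in parental cells and 58 and 15 counts in TRCs. With no filter on low counts, 3 genes of the list were called higher. Without parental replicate 1, 1 was called lower, *Fasn*, the fatty acid synthase gene, at −0.76 (FDR = 0.0403, edgeR exact test). *Arrdc3*, an arrestin-domain gene related to *Txnip*, rose from 20.8 and 16.8 CPM to 58.5 and 81.0 CPM, a log2 fold change of 1.89 (FDR = 1.4e-10, edgeR exact test). *Txnip*, the best-known glucose-responsive target, was measured at 75.1 and 15.9 CPM in parental cells and at 125 and 252 CPM in TRCs. Its log2 fold change of 2.05 had an FDR of 0.00288 in the exact test, 0.079 in the quasi-likelihood test, 0.17 in DESeq2's Wald test and 0.127 without TRC replicate 3.

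SIN3 is the corepressor that MXI1 and MXD4 recruit. Of 16 genes of its complex, 1 (6.25%) was upregulated, near the 8.81% of all tested genes, and 0 were downregulated, against 7.05%, with 0 lower at an unadjusted p under 0.05 and 0 lower by DESeq2, and the median log2 fold change was −0.06. The gene called was *Sap30*, a subunit that stabilises the complex, at 24.1 and 21.1 CPM in parental cells and 41.0 and 61.4 CPM in TRCs (log2 fold change 1.18, FDR = 0.000399, edgeR exact test). Its FDR was 0.107 without TRC replicate 3. *Sin3a* and *Sin3b* had log2 fold changes of −0.01 and 0.07. In the PRC1.6 complex of MGA, 2 of 9 genes (22.2%, against 7.05% of all tested genes) were called lower, *E2f6* at −0.73 and *Tfdp1* at −0.64, and 0 higher (0 also at an unadjusted p under 0.05 and by DESeq2). Both calls were lost in edgeR's quasi-likelihood test (FDR = 0.0568 and 0.0565), and 0 genes of the complex were called lower without parental replicate 3, without TRC replicate 1 or without TRC replicate 3.

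A mixed, hand-written list held 19 cofactors of MYC and factors related to it. Of these, 5 (26.3%) were downregulated, against 7.05% of all tested genes. A further 14 did not pass and 0 were upregulated (0 also at an unadjusted p under 0.05 and by DESeq2). The median log2 fold change was −0.37, and 18 of 19 values were negative. The leading genes were *Tfap4*, an E-box factor and MYC target, at −1.44 (FDR = 0.000647), *Kat2a*, an acetyltransferase, at −0.78 (FDR = 0.0126), and *Bptf*, a remodeller subunit, at −0.72 (FDR = 0.0148, all from edgeR's exact test). Only 1 of the 19 was called lower without parental replicate 3, without TRC replicate 1 or without TRC replicate 3. Of 20 genes that govern MYC protein turnover and phosphorylation, 2 (10%) were upregulated and 2 (10%) downregulated, close to the 8.81% and 7.05% of all tested genes, and the median log2 fold change was −0.15. *Usp36*, a nucleolar deubiquitinase that stabilises MYC, fell from 57.4 and 56.3 CPM to 24.3 and 29.9 CPM (log2 fold change −1.07, FDR = 0.000244), and *Set*, an inhibitor of the phosphatase that destabilises MYC, had −0.89 (FDR = 0.00225). *Pim2*, a kinase that stabilises MYC, had 1.47 (FDR = 0.00172, edgeR exact test). The fourth, *Usp28*, had an FDR of 0.0493 that rose above 0.05 with each single library left out, as did that of *Pim2* without TRC replicate 3 (0.263) and that of *Set* without TRC replicate 1 (0.0999). *Fbxw7*, the ubiquitin ligase subunit that recognises MYC, had a log2 fold change of −0.18 (95% interval −0.63 to 0.27).

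**Figure D4:**
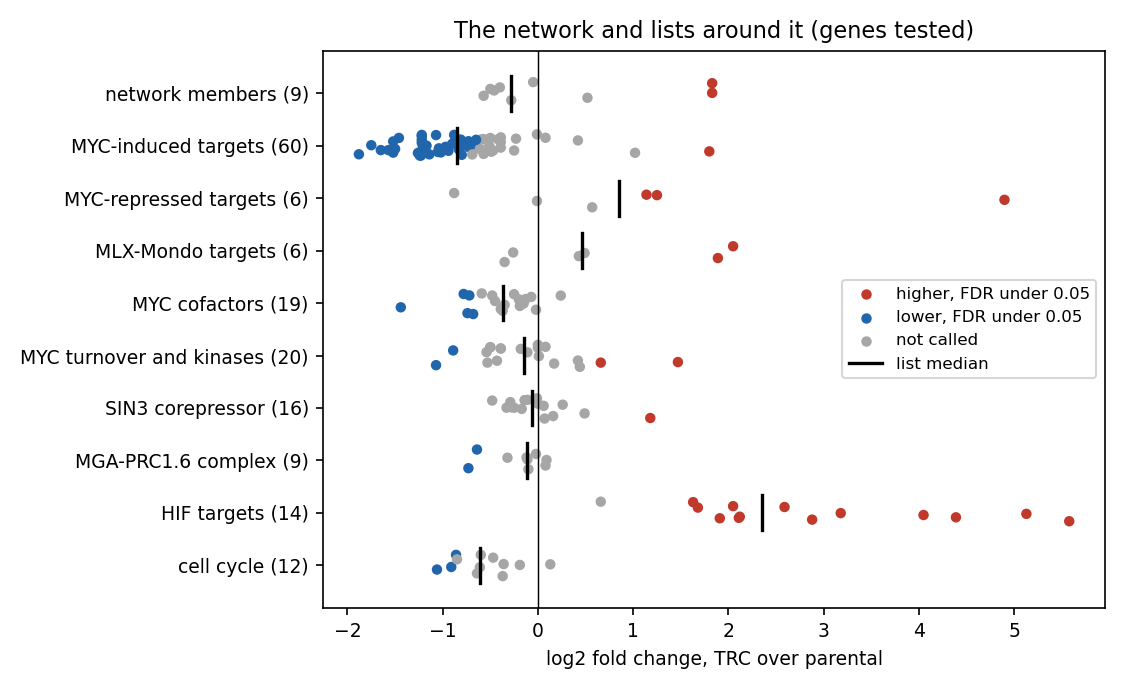
Log2 fold change of TRC over parental for each tested gene of the network and of 9 hand-written lists (points; red, called higher; blue, called lower; grey, not called), with the list median as a black bar. The MYC-induced list lies mostly below 0 with a median of −0.85, the HIF list lies above 0 with a median of 2.36, and the SIN3 list is centred near 0.

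*Mxi1* is a known target of the hypoxia-inducible factor HIF, and 14 other such targets were measured beside it. Of these, 13 (92.9%) were upregulated, against 8.81% of all tested genes, and 0 downregulated (0 also at an unadjusted p under 0.05 and by DESeq2), with a median log2 fold change of 2.36, led by *Bnip3* at 5.13, *Ankrd37* at 5.58 and *Pdk1* at 4.39. TRC replicate 3 exceeded TRC replicate 1 for all 14, with a median log2 ratio of 1.04. The same held for 34 of 60 MYC-induced genes (median 0.07) and 9 of 12 cell cycle genes (median 0.1). It held for 4 of the 9 network members tested, which included *Mxi1* but not *Mxd4*. The share over all tested genes is not given, and each gene offers a single difference between 2 libraries. The part of the hypoxia response in the levels of *Mxi1* and *Mxd4* was not tested. Among 12 cell cycle genes, 3 (25%) were downregulated, against 7.05% of all tested genes: *Mcm3* at −1.06, *Mcm6* at −0.91 and *Mcm2* at −0.86, with 0 upregulated (0 also at an unadjusted p under 0.05 and by DESeq2) and a median of −0.60. The count was 0 without parental replicate 3 or without TRC replicate 1, 1 without TRC replicate 3 and 6 without parental replicate 1. Its part in the levels of the network and of the MYC-induced genes was not tested, and in bulk RNA fewer cells in cycle and less of an mRNA per cell cannot be told apart.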

How the data were processed

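RNA was sequenced from 2 parental B16F1 and 2 TRC samples. The deposited files hold raw counts for each Ensembl gene, made by the authors from stranded single-end libraries with Trimmomatic 0.35, TopHat2 2.1.0 on GRCm38 (Ensembl annotation) and htseq-count, as the submitters' processing notes name them. How htseq-count treated strand and overlaps is not given in the sources used here. Reads that aligned to several places made up 15.2% to 25.2% of the alignments and were not counted. At these depths 3 counts correspond to 0.0689 to 0.0835 CPM, and intervals on counts cover counting error only.

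The totals that name no gene were removed, and then genes under 1 CPM in at least 3 libraries. TMM factors ranged from 0.957 to 1.04. Dispersions were estimated as common and then tagwise in edgeR 4.0.16 (R 4.3.3), whose exact test used a prior count of 0.125. DESeq2 1.42.0 gave SE and intervals. Symbols, positions and exon lengths came from GENCODE M21 (GRCm38), and all 197 listed genes were matched. Alternatives were other filters, scalings and tests, each library left out, and other definitions of the pool.

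The members and lists were chosen with earlier results of these data known. Genes named are all members, *Mycl*, *Mlxip* and *Mlxipl*, up to 3 genes called in each direction per list by smallest FDR, and the 3 genes whose centred log2 CPM profile (CPM plus 0.5) over the 4 libraries was nearest to the top called member. Uncalled list genes named with their values (such as *Cdkn1a*, *Fbxw7* and *Fasn*), *Arrdc4*, *Prelid1*, *Psmc3ip*, *Utp20* and *Ddit3* were added after their values were seen. The labels do not say whether same-numbered libraries are pairs, and the numbers were not taken as pairs. Such libraries deviated together with r = 0.027 across genes, which cannot exclude pairing, as each group gives a single difference. Plots were drawn with matplotlib 3.10.9.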

Additional observations from a re-analysis of the deposited data

How the results depend on the processing

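*Mxi1* and *Mxd4* were the 2 members called higher under every alternative run. The number of members called lower was 0 throughout except without parental replicate 1, with a range of 0 to 1 when single libraries were left out. With single libraries left out, the log2 fold changes of *Mnt* and *Mlx*, which were not called, ran from −0.56 to 0.07 (without parental replicate 3) and from −0.28 to 0.13 (without TRC replicate 1), and the cause of the change in sign was not tested. Over all genes, 1822 calls became 1054 by quasi-likelihood, 785 when that fit included a replicate block, and 773 to 1932 with single libraries left out. The block kept both members (FDR = 0.0221 for *Mxi1* and 0.0157 for *Mxd4*, quasi-likelihood test). Whether the numbers pair the samples is not given in the labels, and with 2 libraries a group r = 0.027 cannot decide it. For the context lists together 73 calls became 46 to 80 with single libraries left out, and for the MYC-induced genes called lower 39 became 21 to 39. A fit that leaves out a library has 1 library in a group, which is assumed to vary like the other group. The rise in the repressor share stayed between 12.3 and 22.8 percentage points under all definitions and left-out libraries. Of 31 named genes called, 17 kept the call under every alternative with a test. With 2 libraries a group, differences of the size seen for *Myc* and *Max* were not resolved.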

Other observations

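Over the 4 libraries, the tested genes whose centred log2 CPM profile lay nearest to that of *Mxd4* were *Per3*, a period gene of the circadian clock, at a distance of 0.051, *S100b*, a calcium-binding protein gene of melanocytic and glial cells, at 0.168, and *Adamts9*, a secreted metalloprotease gene, at 0.169. *Per3* was measured at 4.68 and 3.34 CPM in parental cells and at 15.2 and 15.2 CPM in TRCs. *S100b* had 61.3 and 43.2 CPM in parental cells and 193 and 206 CPM in TRCs. *Adamts9* was low, at 0.63 and 0.51 CPM in parental cells and 3.37 and 3.51 CPM in TRCs. Its log2 fold change was 2.58, against 1.83 for *Mxd4*, so its nearness rests on the 0.5 added to CPM. *Mxi1* stood at rank 83 in this order, with a distance of 0.499. With 4 libraries and 1 contrast, nearness says nothing of shared control.

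Among the MYC-induced genes, *Utp20*, a factor of the small ribosomal subunit, was set apart by its TRC libraries. It had 77.9 and 128 CPM in parental cells and 237 and 38.8 CPM in TRCs (replicate 1 before replicate 3), and a log2 fold change of 0.42 (SE 1.17). *Ddit3*, a stress gene on the MYC-repressed list, had 139 CPM in parental replicate 1 and 18.8 CPM in parental replicate 3, with 31.0 and 54.8 CPM in TRCs. Both were picked for these values, and the cause was not tested.

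The E-box CACGTG was found in the 250 bases before a start for 3 of 9 members and for 8 of 54 MYC-induced genes with a promoter sequence, against 6.86% of all genes. ACGTG was found for 11 of 13 HIF targets and for 5 of 9 members, against 18.5% of all genes. It was also found for 17 of 54 MYC-induced genes and for 3 of 12 SIN3 genes. In *Mxd4*, *Mnt* and *Mlx* it was part of the CACGTG already counted. These are descriptions of the letters in these windows.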
